A study of Homo sapiens with 9 samples.

Results

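The hemidesmosome and laminin-332 genes are the 8 genes ITGA6, ITGB4, LAMA3, LAMB3, COL17A1, DST, PLEC and CD151, taken by gene symbol from the 58381 Ensembl genes in the deposited tables. Their levels were followed in HK1, a human nasopharyngeal carcinoma cell line, transfected for 48 h with 100 nM of an siRNA. The 9 RNA sequencing libraries formed 3 groups of 3. Cells received a non-targeting siRNA (control), E2F1 siRNA (si-E2F1) or E2F3 siRNA (si-E2F3), and all were grown in DMEM with serum. The siRNA sequences, and how many were used per target, were not known here. All 8 genes passed the filter on low values and were among the 13777 genes tested.

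Hemidesmosomes are the plaques that fasten basal epithelial cells to the basement membrane beneath them. Their core receptor is the integrin made of the alpha 6 chain (ITGA6) and the beta 4 chain (ITGB4), which binds laminin-332 outside the cell. Inside the cell, plectin (PLEC) and the plakin BP230, encoded by DST, join the receptor and collagen XVII (COL17A1) to keratin filaments, while the tetraspanin CD151 holds laminin-binding integrins in the membrane. LAMA3 and LAMB3 encode the alpha 3 and beta 3 chains of laminin-332, and the third chain is not analysed here. The siRNA targets belong to the E2F family, DNA-binding proteins that the retinoblastoma protein restrains and that switch on genes for DNA replication.

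Levels are given as FPKM, fragment counts scaled by transcript length and library size, so that genes can be compared per length. Differences are in log2(FPKM + 1), a scale that understates changes of low genes. A gene is said to have risen or fallen when its limma p-value, adjusted by the Benjamini-Hochberg method over all 13777 genes, was below 0.05. Errors of FPKM are SDs over 3 libraries and errors of log2 differences are standard errors (SE). Separate cultures are not mentioned in the labels, so the p-values reflect the spread from library to library, which may be technical. In whole-culture RNA, fewer cells expressing a gene and less RNA per cell cannot be told apart.

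Each siRNA lowered its target. E2F1 was at 19.53 to 20.2 FPKM in the control libraries and at 7.17 to 7.95 with si-E2F1. E2F3 was at 24.42 to 27.17 FPKM in control and at 10.52 to 12.61 with si-E2F3. Steps in the FPKM of short single-exon genes, read as single fragments, gave depths of 18.9 to 26.7 M fragments over the control libraries, 19.6 to 24.7 M for si-E2F1 and 21.8 to 22.2 M for si-E2F3. Mitochondrially encoded genes held 16.0 ± 0.444% of all FPKM in control, 14.6 ± 0.640% with si-E2F1 and 16.7 ± 0.342% with si-E2F3 (SD, n = 3 each); the part of this share in the results below was not tested. All 10 epithelial markers examined, among them EPCAM, KRT5 and TP63, passed the filter. Of 19 markers of other cell types, 11 were under 1 FPKM in every library, among them PTPRC of leukocytes, CDH5 of endothelium and DCN of fibroblasts. Their summed level was 46.9 to 49.5 FPKM in control, 44.3 to 49.2 with si-E2F1 and 46.8 to 48.9 with si-E2F3, most of it from CD68, COL1A1 and ACTA2.

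In control cells CD151 was the most abundant of the 8 transcripts, at 169 ± 15.0 FPKM (SD, n = 3). LAMB3 (131 ± 2.24 FPKM) and ITGB4 (124 ± 6.10 FPKM) came next, and their libraries overlapped, so their order is not set. Below them stood ITGA6 (74.8 ± 2.52 FPKM), COL17A1 (63.1 ± 5.30 FPKM), DST (43.3 ± 1.28 FPKM), PLEC (37.5 ± 1.02 FPKM) and LAMA3 (12.5 ± 0.870 FPKM), each without overlap with its neighbours. CD151 ranked 570th and LAMA3 6974th by level among the genes tested. The length by which the authors divided the reads of a gene with several isoforms is not stated in the labels or files. That length matters most for LAMA3, DST and PLEC, whose longest annotated transcripts have 10661, 22431 and 15249 bases, against 4305 for LAMB3 and 1857 for CD151.

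The order changed after each siRNA. With si-E2F1, CD151 (157 ± 8.86 FPKM) was followed by LAMB3 (72.1 ± 1.24 FPKM) and COL17A1 (65.6 ± 3.11 FPKM), and ITGB4 (59.5 ± 3.76 FPKM) had come down to overlap with COL17A1. ITGA6 (38.9 ± 0.685 FPKM) had come down to the plakins and overlapped with DST (40.4 ± 3.31 FPKM) and PLEC (38.3 ± 2.29 FPKM). With si-E2F3, COL17A1 (88.1 ± 3.03 FPKM) stood above ITGA6 (65.5 ± 4.03 FPKM) and ITGB4 (62.4 ± 5.10 FPKM), whose libraries overlapped each other.

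**Figure D1:**
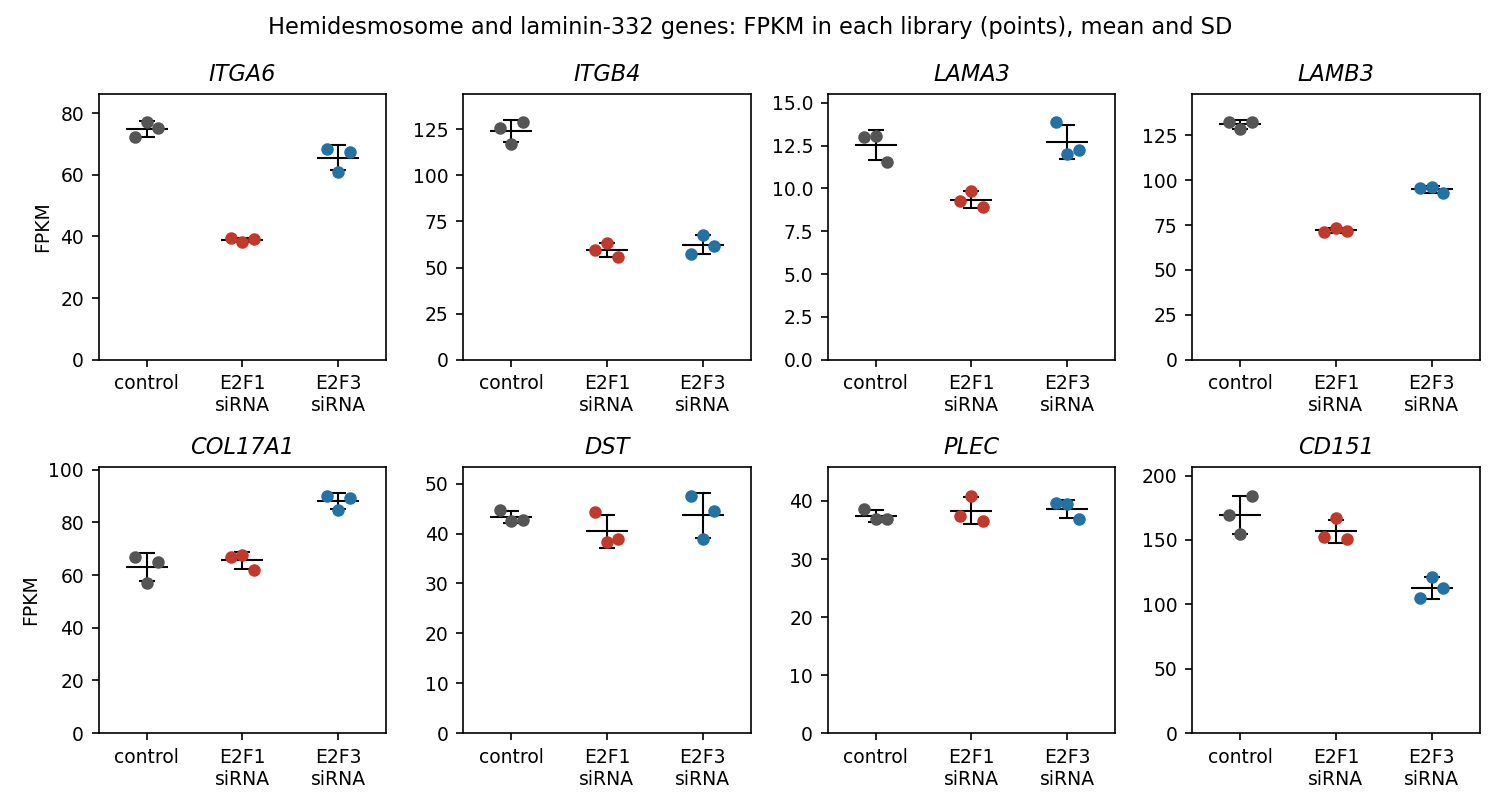
FPKM of the 8 genes (vertical axes, each from 0) in the 3 libraries of each group; points are libraries, horizontal bars are means and error bars are SDs. ITGB4 is near 60 FPKM after either siRNA against 124 in control, ITGA6 and LAMA3 are lowest with si-E2F1, COL17A1 is highest and CD151 lowest with si-E2F3, and for DST and for PLEC the 3 groups overlap.

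With si-E2F1, the receptor and ligand genes were lower than in control: ITGB4, ITGA6, LAMB3 and LAMA3 fell, to between 48.0 and 74.5% of their control means. The plakin genes DST and PLEC, the collagen COL17A1 and the tetraspanin CD151 did not pass the test. These 4 of 8 genes compare with 37.8% of all 13777 genes called in either direction and 17.3% called lower, and the same 4 were the genes whose libraries did not overlap between the groups, as was so for 50.3% of all genes (27.7% higher and 22.6% lower). The median difference of the 8 genes was -0.25, against 0.028 over all genes.

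With si-E2F3, 5 of the 8 genes were called: ITGB4, CD151, LAMB3 and ITGA6 fell, to between 50.3 and 87.6% of control, and COL17A1 rose to 139.6%. LAMA3, DST and PLEC did not pass the test. Over all genes 37.6% were called, 21.1% higher and 16.4% lower. The 5 called genes were also the ones without overlap between the groups, a state that 49.5% of all genes shared (28.6% higher and 21.0% lower). The median difference of the 8 genes was -0.092, against 0.042 over all genes. With relative log expression (RLE) scaling these medians moved to -0.13 and 0.0041. With a correction for GC content and length they moved to -0.21 and -0.0020, and with upper-quartile scaling to -0.077 and 0.056.

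The 2 knockdowns share their control libraries, so whether their effects differ was read from the direct comparison of si-E2F3 with si-E2F1. By this test ITGA6, LAMA3, LAMB3 and COL17A1 were higher and CD151 lower with si-E2F3, while ITGB4, DST and PLEC did not pass. In this comparison 45.5% of all genes were called, 23.5% higher and 22.0% lower. The libraries of the same 5 genes did not overlap between the knockdowns, as for 53.8% of all genes (27.9% higher and 25.9% lower).

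**Figure D2:**
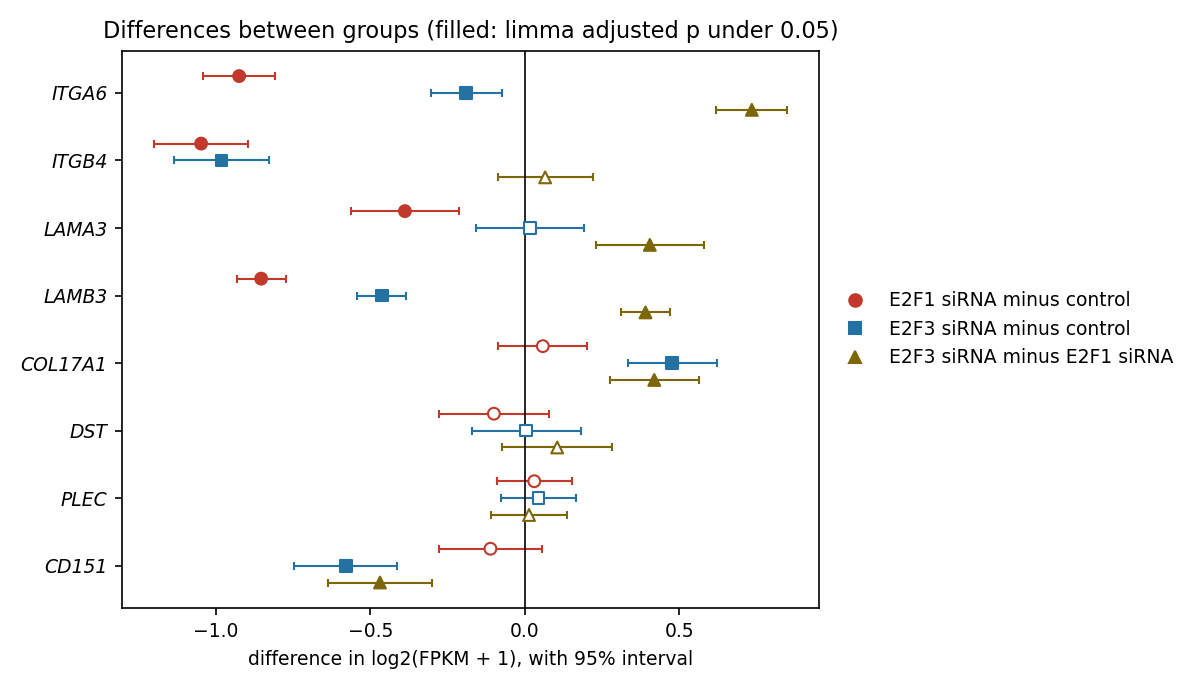
Difference in log2(FPKM + 1) for each of the 8 genes (horizontal axis), with 95% intervals from the limma model, for the 3 comparisons; filled symbols have an adjusted p below 0.05. ITGB4 lies near -1 for either siRNA, ITGA6 at -0.92 with si-E2F1 and -0.19 with si-E2F3, and the intervals of DST and PLEC include 0 throughout.

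ITGB4 (ENSG00000132470.13, chr17:75721328-75757818, plus strand, GRCh38) encodes the integrin chain found only in the hemidesmosome receptor. The control libraries held 125.86, 117.22 and 128.99 FPKM. It was at 59.47, 63.28 and 55.76 with si-E2F1 and at 57.6, 67.75 and 61.84 with si-E2F3. All 6 knockdown libraries lay far below all control libraries and overlapped with each other. ITGB4 fell by 1.05 with si-E2F1 (SE 0.07; limma adjusted p = 3.12e-06) and by 0.98 with si-E2F3 (SE 0.07; limma adjusted p = 5.27e-06). Ordered from the deepest fall, ITGB4 ranked 175th of the 13777 genes with si-E2F1 and 196th with si-E2F3. The difference between the knockdowns was 0.066 (95% interval -0.087 to 0.22; limma adjusted p = 0.465), and it was called after correction for GC content and transcript length (0.20, adjusted p = 0.00328).

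ITGA6 (ENSG00000091409.14, chr2:172427354-172506282, plus strand) encodes the alpha 6 chain, which pairs with beta 4 in hemidesmosomes and can also pair with the beta 1 chain. It was at 72.14, 77.15 and 75.13 FPKM in control, at 39.39, 38.14 and 39.25 with si-E2F1, and at 68.23, 60.91 and 67.49 with si-E2F3. The si-E2F1 libraries stood well below all others, and the si-E2F3 libraries just below the control libraries. ITGA6 fell by 0.92 with si-E2F1 (SE 0.05; limma adjusted p = 1.17e-06) and by 0.19 with si-E2F3 (SE 0.05; limma adjusted p = 0.0166). The second of these calls was lost without control replicate 2 (log2 -0.17, adjusted p = 0.0576). The difference between the knockdowns, 0.74 (SE 0.05; limma adjusted p = 3.17e-06), was the largest among the 8 genes. Of its antisense neighbours, 3 share exon bases with ITGA6, and these were at no more than 1.42 FPKM in any library.

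Relative to ITGA6, ITGB4 was lowest with si-E2F3. The ratio of ITGB4 to ITGA6 FPKM was 1.74, 1.52 and 1.72 in control, 1.51, 1.66 and 1.42 with si-E2F1, and 0.844, 1.11 and 0.916 with si-E2F3. The ratio was lower in every si-E2F3 library than in any other library, and the control and si-E2F1 libraries overlapped. Log2 ratios were taken of FPKM + 1. The log2 ratio with si-E2F3 differed from control by -0.79 and from si-E2F1 by -0.67 (each p = 0.1 in a two-sided exact permutation test, 0.129 adjusted over 9 ratio comparisons). A p of 0.1 is the smallest that 3 against 3 libraries allow.

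LAMB3 (ENSG00000196878.14, chr1:209614870-209652466, minus strand) encodes the beta 3 chain, which is found in laminin-332. It was at 132.5, 128.53 and 132.32 FPKM in control, at 71.08, 73.49 and 71.81 with si-E2F1, and at 95.66, 96.32 and 92.71 with si-E2F3. The 3 groups were fully apart, with control highest and si-E2F1 lowest. LAMB3 fell by 0.85 with si-E2F1 (SE 0.04; limma adjusted p = 1.98e-07) and by 0.46 with si-E2F3 (SE 0.04; limma adjusted p = 9.22e-06). The knockdowns differed by 0.39 (SE 0.04; limma adjusted p = 1.73e-05).

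LAMA3 (ENSG00000053747.15, chr18:23689443-23956222, plus strand) encodes the alpha 3 chain, whose end carries the site that integrins bind. It was at 13.01, 13.08 and 11.54 FPKM in control, at 9.27, 9.87 and 8.89 with si-E2F1, and at 13.88, 12.03 and 12.22 with si-E2F3. Every si-E2F1 library was below every other library, and the si-E2F3 and control libraries overlapped. LAMA3 fell by 0.39 with si-E2F1 (SE 0.08; limma adjusted p = 0.00323). With si-E2F3 its difference was 0.017 (95% interval -0.16 to 0.19; limma adjusted p = 0.879).

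LAMA3 and LAMB3 changed by different amounts. The ratio of LAMB3 to LAMA3 FPKM was 10.2, 9.83 and 11.5 in control, 7.67, 7.45 and 8.08 with si-E2F1, and 6.89, 8.01 and 7.59 with si-E2F3. Every knockdown library had a lower ratio than every control library, and the knockdowns overlapped. The log2 ratio differed from control by -0.47 with si-E2F1 and by -0.48 with si-E2F3 (each p = 0.1 in the exact permutation test, 0.129 adjusted). The level of this ratio depends on the transcript length assumed for LAMA3, which divides out in the comparison between groups as long as the mix of isoforms is the same.

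COL17A1 (ENSG00000065618.18, chr10:104031286-104085957, minus strand) encodes collagen XVII, also called BP180, a transmembrane collagen of the hemidesmosome. It was at 67.02, 57.05 and 65.14 FPKM in control, at 66.98, 67.81 and 62.06 with si-E2F1, and at 90.23, 84.59 and 89.35 with si-E2F3. The si-E2F3 libraries were above all others, and the remaining groups overlapped. COL17A1 rose by 0.48 with si-E2F3 (SE 0.06; limma adjusted p = 3.20e-04), the only rise against control called among the 8 genes. With si-E2F1 its difference was 0.059 (95% interval -0.085 to 0.20; limma adjusted p = 0.511), and the knockdowns differed by 0.42 (SE 0.06; limma adjusted p = 5.41e-04).

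CD151 (ENSG00000177697.18, chr11:832843-839831, plus strand) went the other way. It was at 169.45, 154.47 and 184.48 FPKM in control, at 152.42, 166.78 and 150.62 with si-E2F1, and at 104.6, 121.56 and 112.8 with si-E2F3. The si-E2F3 libraries were below all others. CD151 fell by 0.58 with si-E2F3 (SE 0.07; limma adjusted p = 2.50e-04), and the knockdowns differed by -0.47 (SE 0.07; limma adjusted p = 6.94e-04). Its difference with si-E2F1 was -0.11 (95% interval -0.28 to 0.056; limma adjusted p = 0.276), and it was called after correction for GC content and length (-0.16, adjusted p = 0.0277). CD151 shares 257 exon bases with POLR2L on the other strand, a subunit gene of RNA polymerase II, and the labels and files do not say whether reads were counted by strand. POLR2L was at 129.65, 136.67 and 136.64 FPKM in control, at 133.95, 130.53 and 109.59 with si-E2F1, and at 127.16, 168.24 and 148.51 with si-E2F3, with no call against control; its part in the CD151 values was not tested.

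The plakin genes passed the test in neither knockdown. DST (ENSG00000151914.19, chr6:56457987-56954628, minus strand) gives rise to BP230 in epithelium and to other, longer plakins elsewhere. It was at 44.79, 42.47 and 42.69 FPKM in control, at 44.23, 38.24 and 38.81 with si-E2F1, and at 47.61, 38.82 and 44.42 with si-E2F3. Its difference from control was -0.10 with si-E2F1 (95% interval -0.28 to 0.077; limma adjusted p = 0.356) and 0.0052 with si-E2F3 (95% interval -0.17 to 0.18; limma adjusted p = 0.964). The deposited tables give 1 level for the gene, so the epithelial form was not separated from the others.

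PLEC (ENSG00000178209.14, chr8:143915147-143976734, minus strand) encodes plectin, the linker that binds the tail of the beta 4 chain. It was at 38.65, 36.92 and 36.85 FPKM in control, at 37.45, 40.94 and 36.63 with si-E2F1, and at 39.7, 39.49 and 36.91 with si-E2F3. All 3 groups overlapped. Its difference from control was 0.031 with si-E2F1 (95% interval -0.091 to 0.15; limma adjusted p = 0.692) and 0.045 with si-E2F3 (95% interval -0.077 to 0.17; limma adjusted p = 0.551). Both intervals are narrower than those of the other members that were not called, and leave room for differences up to 0.17. The knockdowns differed by 0.014 (limma adjusted p = 0.856), a difference called after correction for GC content and length (0.13, adjusted p = 0.0482).

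Epithelial markers moved with the groups too. Their summed level was 3108 to 3160 FPKM in control, 2334 to 2435 with si-E2F1 and 2138 to 2253 with si-E2F3. Most of this sum, and of its fall, came from keratins. KRT8 went from 844 FPKM in control to 671 with si-E2F1 and 644 with si-E2F3. KRT17 went from 767 to 400 and 368, and KRT18 from 518 to 412 and 413. Of these 10 markers, 7 fell and ESRP1 rose with si-E2F1, and 7 fell with si-E2F3. Among all genes 37.8% were called with si-E2F1 (17.3% lower) and 37.6% with si-E2F3 (16.4% lower). The markers KRT5, KRT14, KRT17 and TP63 are counted again in the lists of keratins and of transcription factors below. EPCAM, a surface glycoprotein of epithelial cells, was at 175 ± 6.65 FPKM in control, 195 ± 13.5 with si-E2F1 and 177 ± 10.4 with si-E2F3, and was called in neither. CDH1, the E-cadherin of cell junctions, went from 28.8 FPKM to 15.4 with si-E2F1 (log2 -0.86; limma adjusted p = 1.89e-05) and was at 25.1 with si-E2F3 (log2 -0.20; limma adjusted p = 0.0647). The part of these marker changes in the values of the hemidesmosome genes was not tested.

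Promoter sequence was looked up because E2F proteins bind DNA next to start sites. RefSeq start sites on GRCh38.p14 were found for 5 of the 8 genes, ITGA6, LAMA3, LAMB3, COL17A1 and DST, with 10 windows of 250 bases before a start. Both strands were searched for an E2F core in 2 spellings (TTCCCGC and TTGGCGC), an AP-1 site (TGANTCA), a GC box (GGGCGG) and an E-box (CACGTG). The stretches outside annotated exons are shown for 4 windows, chosen to show a gene that fell mainly with si-E2F1, a gene that fell after both, the gene that rose and a gene that was not called. Sequences run 5′ to 3′ on the strand of the gene, and capitals mark the matches.
ITGA6 (chr2:172427086-172427335, plus strand, ending 1 base before the start; E-box in capitals): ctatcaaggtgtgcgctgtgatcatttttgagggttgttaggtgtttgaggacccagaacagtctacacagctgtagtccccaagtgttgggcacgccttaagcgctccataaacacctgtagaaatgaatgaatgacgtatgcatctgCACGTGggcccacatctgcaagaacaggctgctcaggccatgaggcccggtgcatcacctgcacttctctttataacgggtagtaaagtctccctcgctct
LAMB3 (chr1:209651395-209651624, minus strand, a downstream start; AP-1 site and GC box in capitals): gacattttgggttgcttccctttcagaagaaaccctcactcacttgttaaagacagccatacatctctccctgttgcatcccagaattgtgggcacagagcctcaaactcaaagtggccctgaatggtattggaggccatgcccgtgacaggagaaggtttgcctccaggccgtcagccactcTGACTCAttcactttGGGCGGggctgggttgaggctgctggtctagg
COL17A1 (chr10:104085958-104086130, minus strand; no match): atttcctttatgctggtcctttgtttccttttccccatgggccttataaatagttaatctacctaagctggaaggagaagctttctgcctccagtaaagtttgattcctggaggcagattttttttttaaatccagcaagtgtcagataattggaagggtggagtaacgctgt
DST (chr6:56954831-56955080, minus strand, ending 1 base before the first start; E2F core, GC boxes and E-box in capitals): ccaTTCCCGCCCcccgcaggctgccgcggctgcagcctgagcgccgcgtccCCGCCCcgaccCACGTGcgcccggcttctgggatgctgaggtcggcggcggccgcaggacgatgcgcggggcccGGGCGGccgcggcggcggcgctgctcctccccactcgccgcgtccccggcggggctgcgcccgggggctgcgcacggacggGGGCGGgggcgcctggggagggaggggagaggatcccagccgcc

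An E2F core was found in 1 of the 10 windows, the first spelling 247 bases before the first start of DST, where it overlaps a GC box. The windows before the DST starts at 56851905 and 56642889 held no match to any of the motifs. Which DST start serves the epithelial form was not examined. Over all 35116 promoter windows of this length in the RefSeq table, the first spelling occurred in 5.52% and the second in 2.56%. The AP-1 letters occurred in 6.57% of all windows. They were found 67 bases before a downstream start of LAMB3 and 125 and 69 bases before a start of LAMA3. GC boxes were in 6 of the 10 windows, against 42.6% of all, but 2 of the LAMB3 windows overlap and hold the same box. ITGA6 has a further start at 172427586, whose window is not printed and held 3 GC boxes and no E-box. E-boxes were in 2 of the 10 windows, those before the ITGA6 start at 172427336 and the first start of DST, against 6.34% of all. A match of letters is a description of these windows only.

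**Figure D3:**
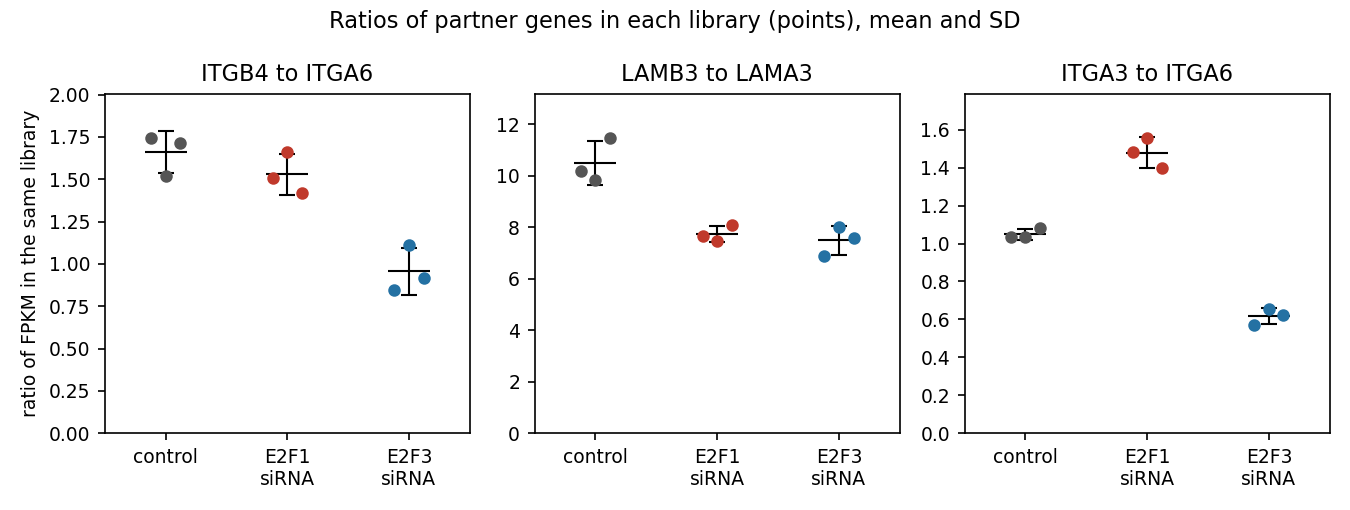
Ratios of FPKM within each library (vertical axis, from 0) for ITGB4 to ITGA6, LAMB3 to LAMA3 and ITGA3 to ITGA6; points are libraries, bars are means and error bars are SDs. ITGB4 to ITGA6 is lowest with si-E2F3, LAMB3 to LAMA3 is lower than control after either siRNA, and ITGA3 to ITGA6 is highest with si-E2F1 and lowest with si-E2F3.

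Among 13 other laminin receptors and their partners, all of them tested, 4 fell and FERMT1 rose with si-E2F1, and 4 fell and 4 rose with si-E2F3. The single rise with si-E2F1 was lost with RLE or upper-quartile scaling, and 2 of the calls with si-E2F3 were lost with RLE scaling (4 fell and 2 rose) or with the correction for GC content and length (4 fell and 3 rose, with 1 call gained). Called shares were 38.5% and 61.5%, against 37.8% and 37.6% of all genes. ITGA3, which joins the beta 1 chain to form the other main laminin-332 receptor of epithelium, was at 78.6 ± 3.58 FPKM in control, 57.6 ± 2.39 with si-E2F1 and 40.3 ± 1.62 with si-E2F3. It fell by 0.44 and by 0.94 (limma adjusted p = 1.23e-04 and 1.26e-06), and the knockdowns differed by -0.50. ITGB1, the shared beta 1 chain, was at 80.8 ± 2.11 FPKM in control, 75.3 ± 1.54 with si-E2F1 and 108 ± 7.99 with si-E2F3, a rise of 0.41 in the last (limma adjusted p = 2.84e-04). The ratio of ITGA3 to ITGA6 was 1.03, 1.03 and 1.08 in control, 1.48, 1.56 and 1.40 with si-E2F1, and 0.571, 0.654 and 0.624 with si-E2F3. The 3 groups did not overlap, and each difference had p = 0.1 in the exact permutation test (0.129 adjusted). The median difference of these 13 genes was -0.0049 with si-E2F1 and 0.044 with si-E2F3. BCAM, a receptor for the laminin alpha 5 chain, fell after either siRNA, from 39.7 FPKM to 25.8 (log2 -0.60) and 21.5 (log2 -0.85). CD82, a tetraspanin like CD151, was at 20.5 FPKM in control, 22.8 with si-E2F1 and 13.5 with si-E2F3, and fell in the last (log2 -0.57, limma adjusted p = 0.00777). The tetraspanins CD9 and CD81 of the same list did otherwise. CD9 fell after either siRNA (log2 -0.21 and -0.27), and CD81 was called in neither.

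Of 8 other laminin chains, 6 passed the filter, and LAMA1 and LAMA4 were too low to test. With si-E2F1 4 of the 6 fell (median -0.40), and with si-E2F3 2 fell (median -0.26). These are 66.7% and 33.3% called, against 37.8% and 37.6% of all genes, so the share with si-E2F3 was not above that of all genes. With upper-quartile scaling 2 others were called higher with si-E2F3. LAMB2, the beta chain of other laminins, fell from 62.5 FPKM to 44.2 (log2 -0.49) and 28.6 (log2 -1.11), and LAMA5 from 75.5 FPKM to 51.9 (log2 -0.53) and 55.0 (log2 -0.45). LAMC1, the gamma chain of most laminins other than laminin-332, fell with si-E2F1, from 122 FPKM to 87.2 (log2 -0.48; limma adjusted p = 4.63e-05). With si-E2F3 it was at 133 (log2 0.12; limma adjusted p = 0.0808), and the knockdowns differed by 0.60 (limma adjusted p = 8.31e-06).

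Of 17 other genes of the basement membrane and its anchoring fibrils, 11 were tested. With si-E2F1 8 fell (median -0.33), and with si-E2F3 2 fell and 2 rose (median -0.093). Called shares were 72.7% and 36.4%, the latter close to the 37.6% of all genes. With RLE scaling 4 fell and 2 rose with si-E2F3. TINAGL1, a matrix protein related to tubulointerstitial nephritis antigen, fell from 65.4 ± 3.56 FPKM to 30.0 ± 1.75 with si-E2F1 (log2 -1.10) and 17.9 ± 0.257 with si-E2F3 (log2 -1.81). COL4A1, a chain of the collagen IV network, moved in opposite directions: from 9.82 ± 0.235 FPKM it fell to 5.38 ± 0.0643 with si-E2F1 (log2 -0.76) and rose to 14.3 ± 0.361 with si-E2F3 (log2 0.50), and the knockdowns differed by 1.27 (limma adjusted p = 2.38e-07). AGRN, the heparan sulfate proteoglycan agrin, fell from 81.2 FPKM to 50.9 and 50.2 (log2 -0.66 and -0.68).

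Of 13 enzymes that cut laminin-332, collagen XVII or integrin precursors, 10 were tested. With si-E2F1 6 fell and PLAT, the tissue plasminogen activator, rose (median -0.27), and with si-E2F3 3 fell (median -0.17). Called shares were 70.0% and 30.0%, the latter below the 37.6% of all genes. The sheddases known to cut collagen XVII from the cell surface were among them. ADAM17 was at 21.0 FPKM in control, 13.7 with si-E2F1 (log2 -0.58) and 17.8 with si-E2F3 (log2 -0.22), and fell in both. ADAM10 fell from 81.9 FPKM to 57.3 (log2 -0.51) and 60.4 (log2 -0.44). ADAM9 fell with si-E2F1, from 68.0 to 54.6 FPKM (log2 -0.31), and was at 72.0 with si-E2F3 (log2 0.078; limma adjusted p = 0.287).

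**Figure D4:**
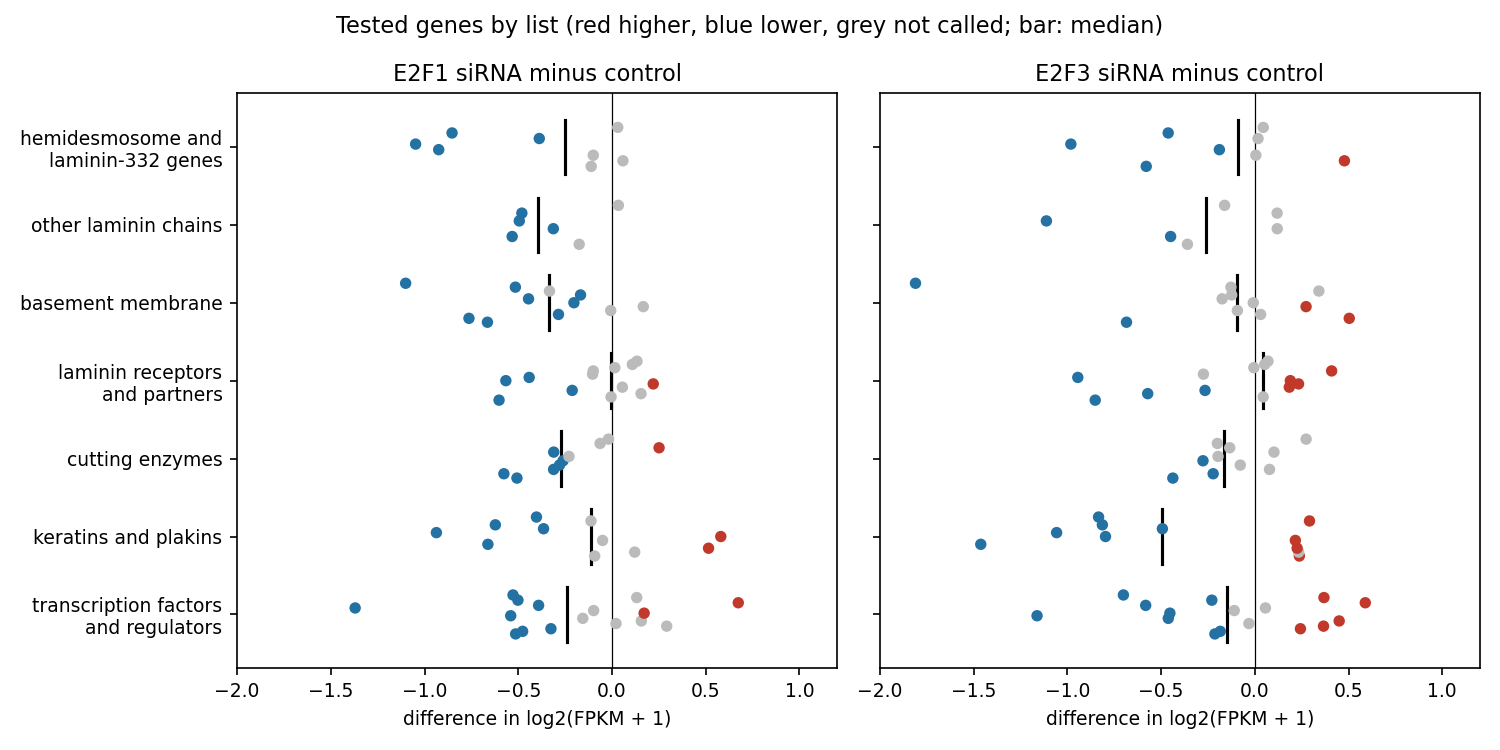
Difference in log2(FPKM + 1) from control (horizontal axis) for each tested gene of 7 gene lists, with E2F1 siRNA on the left and E2F3 siRNA on the right; points are genes (red called higher, blue called lower, grey not called) and black bars are list medians. The medians of the 8 hemidesmosome and laminin-332 genes are -0.25 and -0.092, and the lowest point on the right is TINAGL1 at -1.81.

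Of 12 keratins and other plakins, 11 were tested, and KRT6B was too low. With si-E2F1 5 fell and 2 rose (median -0.11), and with si-E2F3 6 fell and 4 rose (median -0.49). With RLE scaling 2 of these 4 rises were lost. Called shares were 63.6% and 90.9%, against 37.8% and 37.6% of all genes. KRT5 and KRT14 form the filament pair of basal cells that hemidesmosomes hold. KRT5 fell from 345 FPKM to 267 (log2 -0.37) and 245 (log2 -0.49), and KRT14 from 56.3 to 35.3 (log2 -0.66) and 19.8 (log2 -1.46). KRT17 fell from 767 FPKM to 400.2 (log2 -0.94) and 368 (log2 -1.06). KRT14 and KRT17 have near-identical copies in the genome, so their single values are uncertain. KRT16 rose with si-E2F1 (log2 0.58) and fell with si-E2F3 (log2 -0.80). KRT15 did not fall with the other keratins. It was at 27.2 FPKM in control and 26.4 with si-E2F1, without a call, and rose to 31.8 with si-E2F3 (log2 0.22). PPL, the plakin periplakin of the cell cortex, fell from 26.6 FPKM to 19.8 (log2 -0.40) and 14.5 (log2 -0.83). DST and PLEC were not called. The other plakins tested did not fall. EVPL rose after either siRNA (log2 0.52 and 0.23), MACF1 and DSP rose with si-E2F3 (log2 0.29 and 0.24), and EPPK1 was not called.

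Of 17 basal epithelial transcription factors and regulators of hemidesmosomes, 16 were tested, and GRHL2 was too low. With si-E2F1 8 fell and 2 rose (median -0.24), and with si-E2F3 8 fell and 5 rose (median -0.15), of which 2 rises were lost with the correction for GC content and length. Called shares were 62.5% and 81.2%, against 37.8% and 37.6% of all genes. TP63, the p53 relative that marks basal cells, fell from 46.7 ± 1.90 FPKM to 32.1 ± 2.05 (log2 -0.53) and 28.4 ± 2.90 (log2 -0.70). MET, the receptor for hepatocyte growth factor, a signal that takes hemidesmosomes apart, fell from 64.4 ± 2.23 FPKM to 24.3 ± 0.586 with si-E2F1 (log2 -1.37; limma adjusted p = 9.38e-08) and was at 67.1 ± 3.46 with si-E2F3 (log2 0.057; limma adjusted p = 0.404). KLF4, a factor of epithelial differentiation, fell from 35.6 FPKM to 24.2 (log2 -0.54) and 15.4 (log2 -1.16). Other genes of the list went up. SOX2 (log2 0.67, from 1.94 FPKM in control) and KLF5 (log2 0.17) rose with si-E2F1. With si-E2F3 the rises were of SOX2 (log2 0.59), JUN (log2 0.45), TFAP2C (log2 0.37), EXPH5 (log2 0.37) and ETS1 (log2 0.24), while KLF5 fell (log2 -0.45). Beside these lists, ACTA2 and COL1A1 were called among the 5 tested markers of other cell types, both with si-E2F1. That share, 40.0%, was close to the 37.8% of all genes. ACTA2, smooth muscle actin, fell from 9.97 to 4.68 FPKM (log2 -0.95), and COL1A1, the collagen I of fibroblasts, rose from 12.8 to 17.9 FPKM (log2 0.45).

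The genes most like the integrin pair were sought among 9549 genes, by the mean absolute difference over the 9 libraries between a gene's log2(FPKM + 1), set against its control mean, and the mean of ITGA6 and ITGB4 treated likewise. AMOTL2, a membrane scaffold protein of the angiomotin family, came closest with a mean difference of 0.040, at 58.7 FPKM in control, 28.2 with si-E2F1 and 39.5 with si-E2F3. It was followed by AXL (0.060), a receptor tyrosine kinase, FNDC3B (0.069), TMEM245 (0.072) and GSN (0.074), the actin-severing protein gelsolin. All 5 were lowest with si-E2F1 and between that level and control with si-E2F3, which follows from how they were chosen. The pair's mean hides that its members parted with si-E2F3, where ITGA6 was at 87.6% and ITGB4 at 50.3% of control.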

How the data were processed

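RNA from HK1 cells was extracted with a mirVana kit and made into standard Illumina libraries, per the labels' protocols. The submitters' processing notes name Trimmomatic, TopHat, HISAT2, HTSeq, DESeq and GRCh38, without roles or versions. The authors deposited 1 table of FPKM per library (59107 entries with a value, of which 58381 carry Ensembl identifiers; 12 text rows were left out). The depth is not stated, and its estimate assumes that 1 step in FPKM is 1 fragment.

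Symbols came from GENCODE 29, which named 58261 identifiers. A gene was tested if 3 or more of the 9 libraries reached 1 FPKM (13777 genes), and log2(FPKM + 1) was fitted with a group-means model in limma 3.58.1 (R 4.3.3) with a mean-variance trend, two-sided, adjusted over all genes. The fit was tested on simulated data. Log2 ratios of FPKM + 1 were compared by exact permutation tests (scipy 1.17.1). Beyond the 8 members, the text names the siRNA targets, the 3 called genes with the largest change in each list (at least 5 FPKM in a group), ITGA3, ITGB1, KRT5, KRT14 and TP63, and the 5 genes most like the integrin pair. EPCAM, PTPRC, CDH5, DCN, CD68, ESRP1, FERMT1, CD9, CD81, PLAT and POLR2L were named after their values were seen. So were KRT8, KRT15, KRT16, KRT18, EVPL, MACF1, DSP, EPPK1, SOX2, KLF5, JUN, TFAP2C, EXPH5, ETS1 and genes too low to test. The members and lists were chosen with earlier results of these data known. Promoters are from a RefSeq table on GRCh38.p14. Alternatives were other pseudocounts (0.1), filters (none, 5 FPKM), RLE and upper-quartile scaling, a correction for GC content and length, a replicate block, and leaving out each library.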

Additional observations from a re-analysis of the deposited data

How the results depend on the processing

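The number of hemidesmosome genes called stayed within 1.5 times its value in all 51 alternatives, counted over the 3 comparisons. For counts this small the margin is wide, and a move from 5 to 7 passes it. When 1 library was left out, 4 were called after E2F1 siRNA, 4 to 5 after E2F3 siRNA and 5 between knockdowns. With the GC content and length correction 5, 5 and 7 were called. The number of all genes called also stayed within 1.5 times its value, at 4337 to 5276, 4243 to 5141 and 5472 to 6160 when 1 library was left out. Of the log2 changes of single members under the alternatives, 384 kept direction and side of the threshold, 3 became called, 1 was lost and 20 turned sign, the last all of genes that were not called. With correction for GC content and length, PLEC after E2F1 siRNA came to -0.012, LAMA3 and DST after E2F3 siRNA to -0.076 and -0.14, and DST between knockdowns to -0.072. With RLE scaling, LAMA3 and DST after E2F3 siRNA came to -0.022 and -0.036 and PLEC between knockdowns to -0.0017. With upper-quartile scaling, PLEC after E2F1 siRNA came to -0.00013. With 1 library left out, COL17A1 and PLEC after E2F1 siRNA ranged from -0.011 to 0.10 and from -0.016 to 0.062. LAMA3 and DST after E2F3 siRNA ranged from -0.043 to 0.053 and from -0.059 to 0.085, PLEC between knockdowns from -0.017 to 0.061, and the log2 ratio of LAMB3 to LAMA3 between knockdowns from -0.060 to 0.041. The cause was not tested. Same-numbered libraries did not deviate together (correlations from -0.11 to 0.11 over 9 pairs), so the numbers were not taken as pairs. With the replicate block 4936, 4871 and 5982 genes were called, against 5210, 5179 and 6274 without it. Precision is limited by 3 libraries per group and by depth known only from FPKM steps.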
